A study of Homo sapiens and Mus musculus with 69 samples.

Results

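The comparison set 3 libraries of KP1 cells grown with TAS1440 alone against 3 libraries of KP1 cells grown with TAS1440 and a γ-secretase inhibitor (GSI), 6 of the 69 RNA-Seq libraries of the series, and it covered all genes of the KP1 table. Libraries were taken by their labels, with no use of a measured value. KP1 is a mouse small cell lung cancer (SCLC) line that lacks functional Rb1 and Trp53, so both groups share this background. Both groups received TAS1440, an inhibitor of the histone demethylase LSD1 (*Kdm1a*), at 100 nM in culture for more than 28 days. The GSI of the second group was DBZ at 10 µM. A further group of 3 libraries received the vehicle DMSO and is given beside the others as the untreated level. The libraries carry the numbers 1 to 3 (DMSO), 4 to 6 (TAS1440) and 7 to 9 (TAS1440 + GSI). All come from 1 cell line, and nothing in the labels or methods says that libraries of a group came from separate cultures, so *P* values measure the spread between these libraries.

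SCLC cells of the neuroendocrine type carry hormone granules and neuron-like gene programs. LSD1 acts with CoREST, INSM1 and GFI1 as a repressor, and its inhibition is known to raise Notch signaling in these cells. Notch receptors are activated by Delta and Jagged ligands on neighboring cells, are then cut by γ-secretase, and release an intracellular domain that joins RBPJ and MAML in the nucleus and induces *Hes1*, a repressor of neuronal differentiation. A GSI blocks that cut, so the comparison asks which RNA differences of TAS1440-treated KP1 cells were seen when γ-secretase was active and which when it was inhibited. The paper points out that GSIs can also act on other membrane proteins. No KP1 group received the GSI alone, so effects of DBZ through Notch and its other effects cannot be told apart here.

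Values are log2(RPKM + 1), and a difference is the mean with TAS1440 alone minus the mean with TAS1440 + GSI on that scale, ± its standard error from limma, with *P* adjusted by the Benjamini-Hochberg method across the 8260 tested genes. A gene was counted as higher or lower with TAS1440 alone at an adjusted *P* under 0.05 and a difference of at least 1. The pseudocount makes these differences smaller than log2 fold changes for weakly expressed genes. The smallest values in the table tracked the length of the whole gene, introns included (correlation of −0.85 across 4272 genes, against −0.67 with exonic length), so a gene with long introns has an understated level and difference here, and levels of different genes are not compared. Where a gene did not reach the level needed for testing, a second scale is given, in which the RPKM was multiplied by the gene's span ("span-removed scale"). That scale was added after the data were seen and tested 12941 genes. Estimated library sizes were 14.4 M to 17.7 M reads.

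A total of 702 genes (8.5% of the 8260 tested) were higher with TAS1440 alone and 661 (8%) were lower, 1363 (16.5%) in all. The median difference over all tested genes was 0.0048. The groups did not overlap for 689 of the 702 and 653 of the 661 genes, and for 3397 (41.1%) of all tested genes. On the log2(RPKM + 1) scale, large differences were more frequent among the higher genes, with 138 that differed by at least 3 against 48 lower genes. That scale understates differences of long or weakly expressed genes, and large differences were not counted on the span-removed scale. Of the higher genes, 262 had a mean below 0.5 with TAS1440 + GSI, and 292 of the lower genes had a mean below 0.5 with TAS1440 alone. On the span-removed scale 1718 genes (13.3%) were higher and 2107 (16.3%) lower, 29.6% in all. The list counts below are to be read beside these shares over all genes. A gene near 0 with TAS1440 + GSI and DMSO was tested only if all 3 TAS1440 libraries reached a log2 value of 1. The counts and medians of tested list members are thus partly set by this filter.

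**Figure D1:**
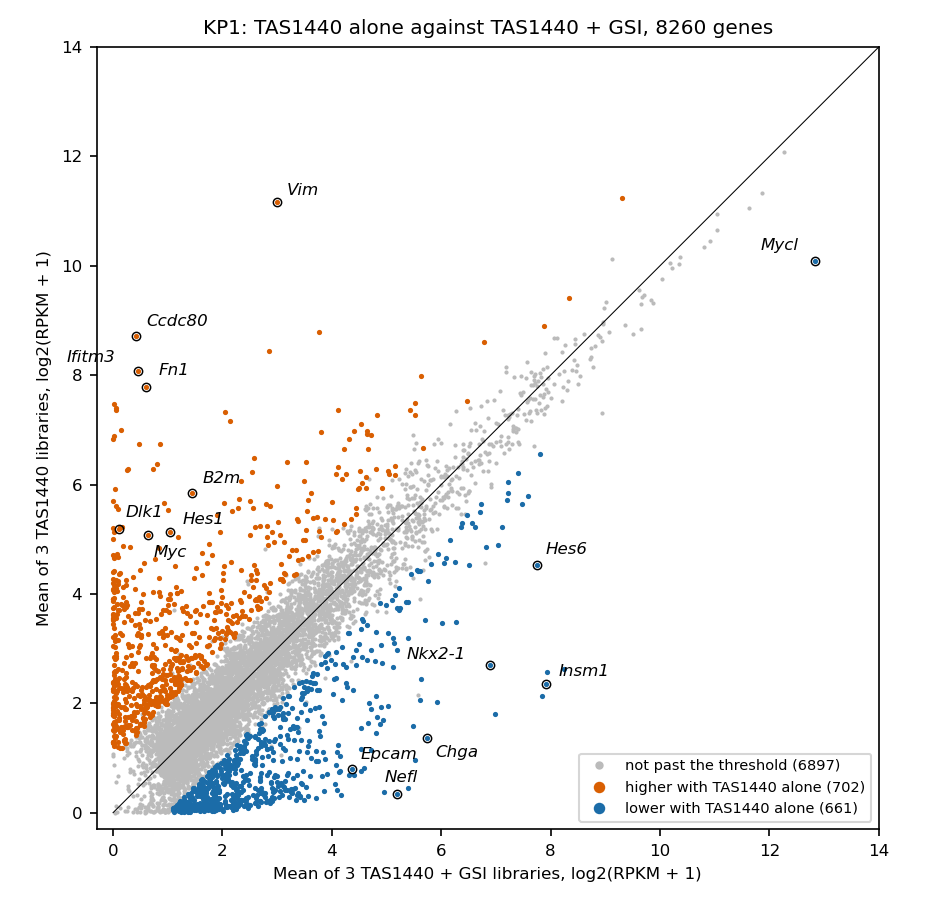
Mean log2(RPKM + 1) of the 3 TAS1440 + GSI libraries (x axis) against that of the 3 TAS1440 libraries (y axis) for the 8260 tested KP1 genes, each a point, with 702 genes higher with TAS1440 alone in orange, 661 lower in blue and equality as a line. *Vim*, *Ccdc80*, *Ifitm3* and *Fn1* stand far above the line and *Insm1*, *Chga* and *Nefl* far below it.

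*Ccdc80* had the largest gain of the 15 genes named for their gains under TAS1440 alone. It encodes a matrix protein (chr16:45093402-45128077, GRCm38), and it read 8.97, 7.62 and 9.54 with TAS1440 alone and 0.00, 0.51 and 0.75 with TAS1440 + GSI, a difference of 8.28 ± 0.42 (adjusted *P* = 2.2e-06). *Vim*, the intermediate filament gene of mesenchymal cells (chr2:13573927-13582826), read 11.32, 10.85 and 11.35 against 1.73, 2.84 and 4.40 (8.18 ± 0.55, adjusted *P* = 9.7e-06). Every TAS1440 library was above every TAS1440 + GSI library for both genes, and the GSI libraries spread far more widely for *Vim* than the TAS1440 libraries did. *Ifitm3*, an interferon-inducible membrane protein that restricts virus entry (chr7:141009586-141010770), had the smallest error among them, with 8.21, 8.11 and 7.92 against 0.14, 0.56 and 0.64 (7.64 ± 0.18, adjusted *P* = 5.1e-08). The others were the protease inhibitor *Slpi* (7.47), the proteoglycan *Bgn* (7.34), osteopontin *Spp1* (7.30), fibronectin *Fn1* (7.18), *Col12a1* (6.87), the growth factor *Fgf7* (6.85), smooth muscle actin *Acta2* (6.82), thrombospondin *Thbs1* (6.26), *Adamtsl3* (6.03), the chemokine *Cxcl12* (6.01), the IGF-binding *Igfbp4* (5.89) and the procollagen protease enhancer *Pcolce* (5.88). Groups that do not overlap were part of the rule that chose these genes.

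Neuroendocrine transcription factors and granule genes were among the 15 genes with the largest losses. *Insm1*, a zinc finger repressor of neuroendocrine cells (chr2:146221921-146225020), read 0.17, 2.14 and 4.73 with TAS1440 alone, 8.13, 8.13 and 7.48 with TAS1440 + GSI and 7.19, 7.25 and 7.20 in DMSO, a difference of −5.57 ± 0.89 (adjusted *P* = 0.0012) between the TAS1440 groups. Libraries 4, 5 and 6 spread over more than 4 log2 units, while the TAS1440 + GSI libraries lay close together, and TAS1440 + GSI did not pass the test against DMSO (0.70, adjusted *P* = 0.89). The chromogranin gene *Chga* had the TAS1440 libraries in the same order, with 0.01, 1.28 and 2.82 against 5.25, 5.16 and 6.80 (−4.37 ± 0.71, adjusted *P* = 0.0013). *Nkx2-1*, the lung lineage transcription factor, was more even, with 2.41, 2.28 and 3.39 against 7.06, 7.00 and 6.59 (−4.19 ± 0.29, adjusted *P* = 1e-05). Other members were the keratin *Krt7* (−5.61), *Cited4* (−5.34), *Bex2* (−5.18), *Cer1* (−4.94), neurofilament *Nefl* (−4.86), *Clca3b* (−4.58), the protocadherin *Pcdh10* (−4.55), *Nnat* (−3.89), complexin *Cplx2* (−3.89), *Car10* (−3.85) and *Bex4* (−3.78). They were chosen by the same rule.

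Within the TAS1440 group the libraries were not alike. Library 6 was the highest of the 3 for 437 of the 661 lower genes and library 4 the lowest for 386, so libraries 4, 5 and 6 differed in how much of the neuroendocrine RNA remained. For the 702 higher genes the highest library was more evenly shared, with 211 in library 4, 221 in library 5 and 270 in library 6. In the TAS1440 + GSI group, library 9 was the highest of the 3 for 413 of the 702 higher genes and the lowest for 334 of the 661 lower genes. The counts of higher and lower genes stayed between 625 and 751 and between 603 and 737 when any 1 of the 9 libraries was left out.

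Of the 8 Notch ligand genes listed, 7 were tested, 1 was higher and 3 were lower with TAS1440 alone, with a median of −0.995 against 0.0048 over all genes. The lower count was 5 with a pseudocount of 0.1, with array weights and, of 8 tested, on the span-removed scale. *Dll3*, an inhibitory ligand typical of SCLC, read 0.03, 0.08 and 0.51 against 2.80, 3.39 and 1.86 (−2.47 ± 0.35, adjusted *P* = 0.00057). The activating ligands *Dll1* (−2.41 ± 0.33, adjusted *P* = 0.00051) and *Dll4* (−2.13 ± 0.25, adjusted *P* = 0.00021) were lower as well, and no TAS1440 library reached any TAS1440 + GSI library for these 3 genes. *Dlk1*, a Delta-like protein without the domain that activates receptors, went the other way, with 5.64, 5.36 and 4.56 against 0.08, 0.00 and 0.25 (5.07 ± 0.24, adjusted *P* = 1.7e-06). *Jag2* (−0.87, adjusted *P* = 0.011) and *Dner* (−0.995, adjusted *P* = 3.4e-05) did not reach the difference of 1 but did so in 4 and 5 of the other settings, and *Dlk2* did not pass the test (−0.43, adjusted *P* = 0.41). *Jag1* was not tested, at 1.56, 0.84 and 0.84 against 0.31, 0.40 and 1.14.

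Among the receptors, *Notch2* (chr3:98013527-98150361) read 2.21, 1.49 and 1.83 with TAS1440 alone and 0.36, 0.48 and 0.33 with TAS1440 + GSI, a difference of 1.45 ± 0.17 (adjusted *P* = 0.00016), and the groups did not overlap. *Notch1* (chr2:26457903-26516663) stayed below the level for testing, with 1.45, 1.33 and 0.95 against 0.23, 0.41 and 0.54, and with 0.06, 0.04 and 0.03 in DMSO. The 3 groups of *Notch1* values did not overlap, and on the span-removed scale *Notch1* was higher with TAS1440 alone by 2.15 ± 0.39 (adjusted *P* = 0.0023) and higher in TAS1440 + GSI than in DMSO by 2.89 (adjusted *P* = 0.0085). On that scale *Notch3* was higher with TAS1440 alone by 3.45 and *Notch4* lower by 1.88, with values below 0.31 log2(RPKM + 1) in every library of both genes.

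Of 17 genes for processing and modification of the receptors, 15 were tested, 1 was higher and 2 were lower. Over all tested genes 8.5% were higher and 8% lower. The fringe glycosyltransferases *Mfng* (0.01, 0.65 and 0.71 against 2.92, 2.72 and 2.47, a difference of −2.25) and *Lfng* (1.39, 1.16 and 2.51 against 3.85, 3.95 and 2.85, a difference of −1.86) were lower, and *Furin*, the protease that matures the receptors, was higher (3.89, 4.14 and 3.57 against 2.79, 2.72 and 2.62, a difference of 1.16 ± 0.26). The genes of γ-secretase itself given here did not pass the threshold. *Psen2* (−0.16, adjusted *P* = 0.64), a catalytic subunit, *Aph1a* (0.20) and *Psenen* (0.23) had no adjusted *P* under 0.05, whereas *Ncstn* (0.66, adjusted *P* = 0.0088) passed the test below a difference of 1. The sheddases *Adam10* (0.41, adjusted *P* = 0.025) and *Adam17* (0.70, adjusted *P* = 0.011) did likewise. Of the 9 nuclear factors, 5 were tested and 0 passed the threshold by limma, and *Spen*, a co-repressor of RBPJ, was the only one of the 5 with an adjusted or an unadjusted *P* under 0.05 (−0.74, adjusted *P* = 0.033). The DNA-binding partner *Rbpj* was not tested, with 1.44, 1.72 and 0.85 against 0.79, 0.80 and 0.76, and it was higher on the span-removed scale (1.02, adjusted *P* = 0.037). On that scale 2 of the 9 nuclear factors were higher, *Rbpj* and *Maml2*, and 0 were higher without library 5.

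Genes listed as targets of the pathway differed in direction, with 2 higher and 2 lower of 7 tested. Being listed does not show that Notch induces a gene in these cells. *Hes1* (chr16:30064384-30067796) read 4.64, 5.42 and 5.33 with TAS1440 alone against 0.95, 0.86 and 1.31 with TAS1440 + GSI and 0.87, 0.93 and 0.55 in DMSO, a difference of 4.09 ± 0.23 (adjusted *P* = 4.2e-06) between the TAS1440 groups. All 3 TAS1440 libraries were far above the other 6, and TAS1440 + GSI did not pass the test against DMSO (0.25, adjusted *P* = 0.79). *Bhlhe40*, another repressor of the same protein class, was higher by 3.46 ± 0.26 (adjusted *P* = 1.7e-05). *Hes6*, which antagonizes HES1 and marks neural progenitors, was lower, with 2.99, 4.48 and 6.14 against 8.25, 7.98 and 7.04 (−3.22 ± 0.68, adjusted *P* = 0.0058), and *Dtx1* was lower by 1.82 (−1.82 ± 0.17). *Nrarp* (−0.72, adjusted *P* = 0.24), *Hey1* (0.46, adjusted *P* = 0.26) and *Dtx3l* (−0.05, adjusted *P* = 0.85) did not pass the test. Library 4 had the lowest TAS1440 value of *Nrarp* (0.77 against 2.79 and 2.46) and of *Hey1* (1.21 against 2.43 and 2.22). Of the other targets listed, *Hes2*, *Hes3*, *Hes7*, *Hey2*, *Heyl* and *Ptcra* were below 0.12 in all 9 libraries, and *Hes5* was at 0.00, 0.00 and 0.11 against 1.00, 0.51 and 0.77.

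The gene of the drug target and its partners also differed. *Kdm1a* read 1.30, 1.68 and 1.58 with TAS1440 alone and 2.94, 2.94 and 2.36 with TAS1440 + GSI (−1.22 ± 0.21, adjusted *P* = 0.0017), although both groups received the inhibitor. Its recruiting factor *Gfi1* (−2.94 ± 0.27) and the co-repressor *Rcor2* (−1.73 ± 0.39) were lower along with *Insm1*, while *Hdac1* (−0.03, adjusted *P* = 0.93) and *Rcor1* (0.02, adjusted *P* = 0.92) did not pass the test. *Rest*, the repressor of neuronal genes in non-neuronal cells (chr5:77265491-77286432), was the 1 higher gene of the 12 tested. It read 2.48, 1.99 and 1.65 with TAS1440 alone, 0.99, 0.72 and 1.02 with TAS1440 + GSI and 0.03, 0.02 and 0.03 in DMSO, so the 3 groups did not overlap. The difference between the TAS1440 groups was 1.13 ± 0.19 (adjusted *P* = 0.0017), and it fell below 1 (0.91) without library 4. Against DMSO, TAS1440 + GSI was higher by 0.88 (adjusted *P* = 0.057), and by 4.31 on the span-removed scale (adjusted *P* = 0.00041).

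**Figure D2:**
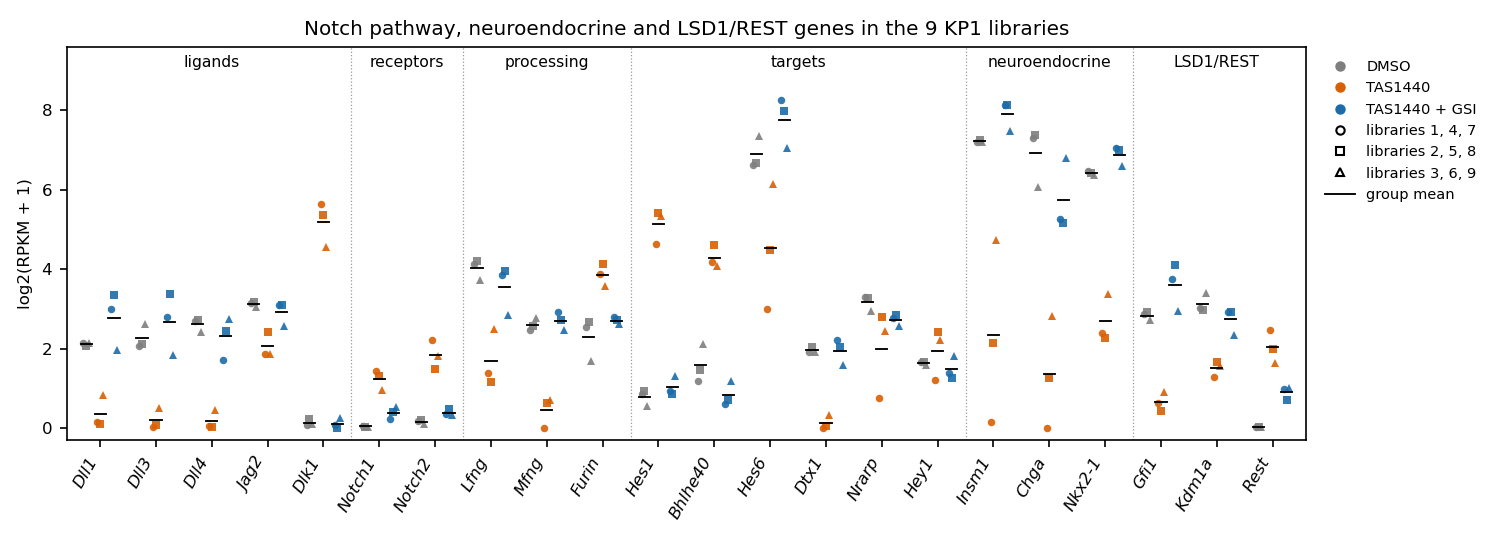
Log2(RPKM + 1) of Notch ligands, receptors, processing genes and targets and of neuroendocrine and LSD1/REST genes in the 9 KP1 libraries, with each library a symbol, DMSO in grey, TAS1440 in orange, TAS1440 + GSI in blue and group means as bars. *Hes1*, *Dlk1* and *Bhlhe40* are higher in the 3 TAS1440 libraries than in the other 6, and *Insm1* is low there with a spread from 0.17 to 4.73.

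Neuroendocrine genes were lower almost throughout. Of 39 listed genes, 27 were tested, 0 were higher and 24 were lower, with a median of −2.64, and on the span-removed scale 33 of 37 tested were lower and 0 higher. The summed RPKM of the 39 genes was 26.8 to 114 in the TAS1440 libraries, 864 to 1036 in the TAS1440 + GSI libraries and 1041 to 1097 in DMSO. Such sums weigh genes of short span more. With the span removed they were 289 to 1111, 7603 to 8001 and 8622 to 9226. Library 6 was the highest of the TAS1440 libraries for 25 of the 27 tested genes, and library 4 was the lowest for 24. Genes of the hormone granule were lower, among them the prohormone convertase *Pcsk1* (−1.98), *Chgb* (−2.78), *Resp18* (−2.47), *Scg3* (−2.11) and the calcitonin gene *Calca* (−2.88). Synaptophysin, *Syp*, a routine marker of SCLC, read 0.02, 0.29 and 0.57 against 2.68, 2.81 and 3.24 (−2.62 ± 0.21, adjusted *P* = 2e-05). The lineage factor *Foxa2* (−3.34), the RNA-binding *Celf3* (−3.12) and *Elavl3* (−2.91), and neurofilament genes *Ina* (−3.11) and *Nefm* (−2.18) were also lower. *Uchl1*, a neuronal deubiquitinase, was lower without falling near 0, with 2.71, 3.78 and 4.10 against 5.65, 5.80 and 5.68 (−2.18 ± 0.33).

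The exceptions were few. *Elavl4* (−0.95, adjusted *P* = 0.00028) and *Snap25* (−0.77, adjusted *P* = 0.00017) passed the test below a difference of 1. *Scg2* did not pass, and its libraries disagreed, with 3.83, 0.10 and 1.05 against 1.01, 1.37 and 3.42 (−0.27 ± 1.00, adjusted *P* = 0.86). *Ncam1*, another marker of the line, was not tested, with 0.39, 0.70 and 0.76 against 0.58, 0.77 and 0.96. Its span-removed difference did not pass (−0.43, adjusted *P* = 0.36). *Neurod1* was not an exception in direction, with 0.00, 0.02 and 0.39 against 0.86, 0.76 and 0.69, so every TAS1440 library was below every TAS1440 + GSI library.

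Genes of the synapse and of ion channels span large loci, so only 10 of 34 listed were tested, of which 5 were lower and 0 higher (median −1.17). The nicotinic receptor subunit *Chrnb2* (−2.03), the vesicle protein *Sv2a* (−1.84), the release factor *Unc13a* (−1.40) and the glutamate receptor subunit *Grin1* (−1.34) were lower. On the span-removed scale 27 were tested, 23 were lower and 1 was higher, with a median of −4.27 against −0.0409 over all genes. *Scn8a*, a sodium channel gene, is an example of a gene seen only there, with 0.08, 0.03 and 0.07 against 0.92, 0.84 and 0.72 on the log2(RPKM + 1) scale and a span-removed difference of −4.27 (adjusted *P* = 3.3e-05). The 1 higher gene was *Dlg2*, a postsynaptic scaffold, at 0.04, 0.00 and 0.01 against 0.00 in each TAS1440 + GSI library.

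**Figure D3:**
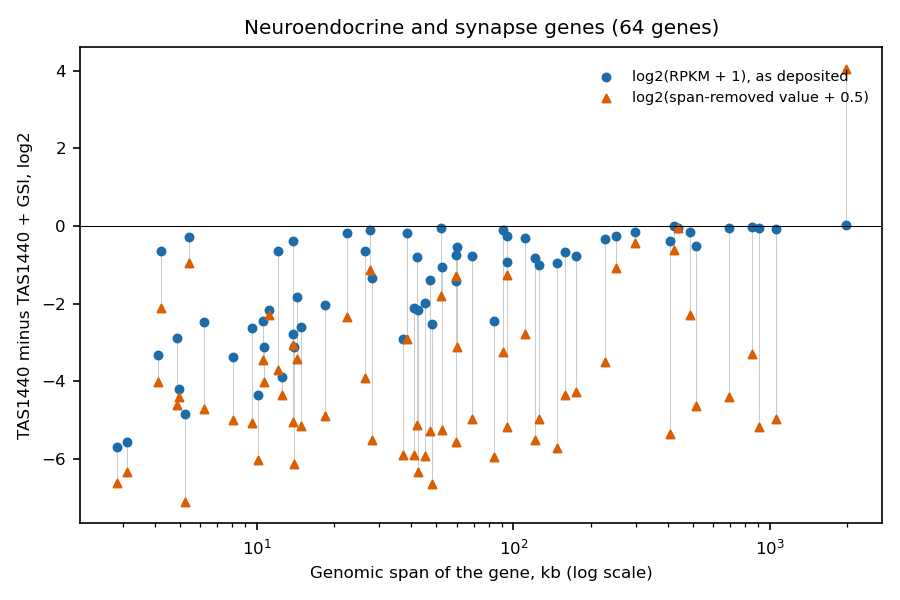
Difference between TAS1440 and TAS1440 + GSI (y axis, log2) against the genomic span of the gene in kb (x axis, log scale) for 64 neuroendocrine and synapse genes, on the deposited scale (blue circles) and with the span removed (orange triangles), joined by a line for each gene. The median was −0.88 on the deposited scale and −4.51 with the span removed, and circles of genes over 200 kb lie near 0.

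Mesenchymal genes were higher almost throughout. Of 43 listed, 34 were tested, 32 were higher and 1 was lower, with a median of 3.97 against 0.0048 over all genes. The summed RPKM of the list was 3433 to 4707 in the TAS1440 libraries, 52.2 to 58.8 in TAS1440 + GSI and 37.2 to 41.9 in DMSO. With the span removed the sums were 53833 to 61769, 1037 to 1177 and 1005 to 1091, so TAS1440 + GSI and DMSO overlapped. Transcription factors of the epithelial-mesenchymal transition were among them. *Snai2* read 7.02, 5.83 and 6.62 against 2.73, 2.67 and 2.32 (3.91 ± 0.28, adjusted *P* = 1.2e-05), *Snai1* was higher by 3.54 ± 0.40 and *Twist1* by 2.98 ± 0.48. *Zeb1* and *Zeb2* were not tested. *Zeb2* was higher on the span-removed scale (3.80, adjusted *P* = 3.8e-05) and *Zeb1* did not pass there (0.53, adjusted *P* = 0.086). The cell adhesion gene *Epcam* was the lower member, with 0.03, 0.47 and 1.89 against 4.70, 4.77 and 3.62 (−3.57 ± 0.46), and E-cadherin, *Cdh1*, passed the test below a difference of 1 (−0.70, adjusted *P* = 0.0082). N-cadherin, *Cdh2*, was not tested, and its values did not follow the mesenchymal genes, with 0.57, 0.83 and 0.54 against 1.11, 1.05 and 0.95.

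Other members bind calcium and membranes or cross-link matrix. The galectin *Lgals1* (5.60), *S100a6* (5.58), *S100a11* (5.13), annexins *Anxa1* (4.21) and *Anxa2* (3.99), the tenascin *Tnc* (4.68), the receptor kinase *Axl* (4.14) and the collagen cross-linker *Lox* (5.55) were higher. *Lox* read 7.72, 3.93 and 7.20 against 0.68, 0.93 and 0.57, so library 5 was the lowest TAS1440 library by a wide margin. *Tagln*, of smooth muscle, was not tested and differed between the TAS1440 libraries, at 0.39, 2.94 and 4.35 against 0.04, 0.03 and 0.00.

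Of 16 collagen genes, 6 were tested and 5 were higher. The basement membrane chains *Col4a1* (3.46, 4.10 and 3.35 against 1.04, 0.95 and 0.63) and *Col4a2* (2.76, 2.98 and 2.84 against 0.84, 0.69 and 0.56) were even across libraries. Fibrillar and type VI chains were not. *Col6a1* read 7.08, 2.51 and 7.21 and *Col6a2* 5.78, 1.81 and 6.36, against 0.07 or less in the TAS1440 + GSI libraries. *Col3a1* read 8.07, 0.13 and 6.16 and *Col1a2* 1.89, 0.03 and 5.60, against 0.02 or less. Library 5 was thus low for these 4 chains. On the span-removed scale 13 of 16 were higher and library 5 was the lowest TAS1440 library for 11.

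Integrin and laminin genes numbered 10 higher and 0 lower of 12 tested (median 2.32). *Lamb2*, a laminin chain, read 9.18, 8.11 and 9.07 against 3.17, 4.32 and 3.81 (5.02 ± 0.40, adjusted *P* = 2.1e-05). The fibronectin receptor *Itga5* (3.36, 3.99 and 3.87) and the vitronectin receptor *Itgav* (3.39, 3.99 and 3.21) were at 0.01 or less with TAS1440 + GSI. *Itgb1*, their common partner chain, was higher by 2.06 ± 0.25. Of the YAP, TAZ and TEAD list, 9 of 12 tested were higher and 0 lower (median 2.32). The coactivators *Yap1* (1.55, 1.80 and 1.67 against 0.29, 0.23 and 0.14, a difference of 1.46 ± 0.10) and *Wwtr1*, the gene of TAZ (1.51 ± 0.10), were higher with their targets *Amotl2* (3.43), *Ajuba* (2.86) and *Ankrd1*, which read 4.01, 6.45 and 3.68 and was listed at 0 in the TAS1440 + GSI libraries. *Tead1* did not pass the test (−0.08, adjusted *P* = 0.77).

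Markers of other cell types were read in the same libraries. The leukocyte markers *Ptprc*, *Cd4*, *Itgam* and *Adgre1* were at or near 0 in all 9 libraries. None of the 10 leukocyte markers in the table was tested. Their summed RPKM was 1.99 to 11.8 with TAS1440 alone and 0.526 to 1.21 with TAS1440 + GSI. On the span-removed scale 3 of them were tested, and 1 was higher and 0 lower. The 10 endothelial and epithelial markers summed to 0.323 to 0.886 and 1.13 to 1.29 RPKM. With the span removed their sums were 3.79 to 12.77 and 12.75 to 20.2, so the groups overlapped. Of 10 fibroblast markers, 3 were tested and 1 was higher, *Pdgfrb*, with 3.91, 3.94 and 3.07 against 0.10, 0.06 and 0.03 (3.58 ± 0.21). *Fap* and *Dpt*, defining fibroblast genes, were at 0.01 or less in every library, while the summed RPKM of the 10 markers was 15.7 to 303 with TAS1440 alone and 2.24 to 10.5 with TAS1440 + GSI. On the span-removed scale 8 were tested, 4 were higher (*Col1a1*, *Col1a2*, *Col3a1* and *Pdgfrb*) and 0 lower, with a median of 4.29, and 6 were higher without library 5. The part of such cells in the mesenchymal differences was not tested. Bulk RNA cannot tell fewer cells of a type from less RNA per cell. *Cd74*, the invariant chain of MHC class II, was not tested and read 3.61, 0.68 and 1.30 against 0.01, 0.01 and 0.00.

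Antigen presentation through MHC class I, the route by which CD8+ T cells see tumor peptides, was higher in part. Of 22 genes listed, 17 were tested, 5 were higher and 0 lower, with a median of 0.64. *B2m*, the invariant light chain (chr2:122147686-122153083), read 6.02, 5.59 and 5.90 against 1.13, 1.39 and 1.80, and 1.21, 1.34 and 0.89 in DMSO (4.40 ± 0.21, adjusted *P* = 1.8e-06). The peptide editor *Tapbp* read 5.19, 4.83 and 5.70 against 2.27, 2.60 and 3.21 (2.55 ± 0.34, adjusted *P* = 0.00039). The non-classical heavy chains *H2-M3* (1.96 ± 0.31, adjusted *P* = 0.0011) and *H2-T23* (1.13 ± 0.33, adjusted *P* = 0.028) and the immunoproteasome subunit *Psmb8* (1.31 ± 0.44, adjusted *P* = 0.048) completed the 5. *Psmb8* lost its call under 12 and *H2-T23* under 7 of 17 other settings or left-out libraries, and the count was 3 without library 5, 7 or 8.

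The classical heavy chains did not pass the test with all libraries. *H2-K1* read 4.64, 5.38 and 5.46 against 4.39, 4.72 and 4.55 (0.61 ± 0.27, adjusted *P* = 0.12), and *H2-D1* read 5.44, 5.72 and 5.57 against 4.48, 4.66 and 5.32 (0.76 ± 0.29, adjusted *P* = 0.077). Without library 9 *H2-D1* passed the threshold, with a difference of 1.01. These genes are near-identical in parts, so reads may be split between them. The peptide transporters *Tap1* (0.48, adjusted *P* = 0.090) and *Tap2* (0.62, adjusted *P* = 0.17) did not pass either. Library 9 was the highest TAS1440 + GSI library for 13 of the 17 tested genes. *Nlrc5*, the transactivator of this pathway, was at 0.06 or less in every library.

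Of the genes for cytosolic nucleic acid sensing, 9 of 17 were tested, 2 were higher and 0 lower (median 0.45). *Ddx58*, the gene of the RNA sensor RIG-I (chr4:40203773-40239828), read 2.92, 4.54 and 2.85 against 0.34, 0.43 and 0.41 (3.04 ± 0.38, adjusted *P* = 0.00026). *Ifi204*, a DNA sensor, read 1.96, 1.09 and 1.46 and was listed at 0 in all 6 other libraries. *Tmem173*, the gene of STING, did not pass the test, with 1.67, 1.85 and 1.86 against 1.50, 1.10 and 1.69 (0.36 ± 0.21, adjusted *P* = 0.22), and with 1.99, 2.27 and 1.58 in DMSO its groups overlapped. *Mavs*, the adaptor of RIG-I-like sensors (0.56, adjusted *P* = 0.0089), the transcription factor *Irf3* (0.45, adjusted *P* = 0.038) and the dNTP hydrolase *Samhd1* (0.82, adjusted *P* = 0.0058) passed the test below a difference of 1. *Tlr3*, a receptor for double-stranded RNA, was not tested and read 1.25, 0.89 and 1.62 against 0.06, 0.06 and 0.11, with a span-removed difference of 4.01 (adjusted *P* = 7.2e-05).

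Interferon-inducible genes numbered 8 higher and 1 lower of 23 tested from 44 listed (median 0.75), and 19 higher and 2 lower of 38 on the span-removed scale. *Isg15*, a ubiquitin-like modifier, read 2.84, 4.84 and 2.87 against 0.42, 0.06 and 0.52 (3.18 ± 0.46, adjusted *P* = 0.00063). *Bst2*, which tethers virus particles, read 2.98, 5.10 and 2.78 against 1.51, 1.53 and 2.09 (1.91 ± 0.52, adjusted *P* = 0.019). *Ifitm2* (1.98), *Irgm1* (1.65), the interferon γ receptor chain *Ifngr2* (1.34), *Ifit3* (1.33) and *Xaf1* (1.31) were the others beside *Ifitm3*, and *Cmpk2*, a nucleotide kinase, was lower (−1.44 ± 0.22). The transcription factor *Irf1* (0.73, adjusted *P* = 0.012) passed the test below a difference of 1, and *Irf9* did not pass (0.38, adjusted *P* = 0.54).

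Library 5 stood apart for these genes. It was the highest TAS1440 library for 13 of the 23 tested genes and for 26 of the 38 tested on the span-removed scale. *Irf7*, the inducible transcription factor of type I interferon, read 0.35, 3.35 and 0.58 against 0.32, 0.17 and 0.13, and *Oasl1* read 0.87, 3.83 and 0.46 against 0.67, 0.13 and 0.24. For both genes libraries 4 and 6 lay at or near the TAS1440 + GSI values, so they were high in 1 library. Without library 5 the count was 7 higher and 1 lower, with *Xaf1* lost, and on the span-removed scale it was 19 higher and 3 lower. *Ifitm3*, *Isg15*, *Irgm1*, *Ifit3* and *Ifngr2* had all 3 TAS1440 libraries above the TAS1440 + GSI libraries.

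**Figure D4:**
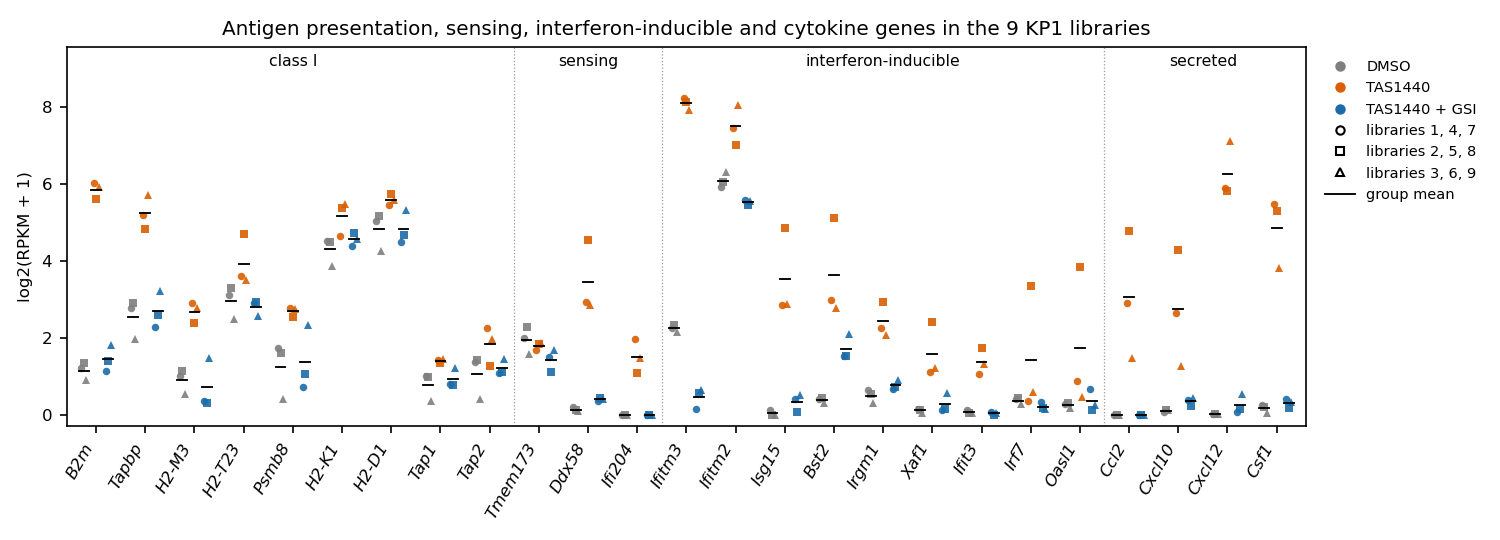
Log2(RPKM + 1) of class I presentation, sensing, interferon-inducible and secreted factor genes in the 9 KP1 libraries, with symbols for libraries, colors for groups and bars for group means. *B2m*, *Tapbp* and *Ifitm3* are high in all 3 TAS1440 libraries, whereas *Irf7* and *Oasl1* are high in library 5 (orange square) alone.

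Secreted factors were higher in 9 of 10 tested genes and lower in 0, from 28 listed (median 2.02). *Cxcl12* read 5.87, 5.81 and 7.09 against 0.06, 0.14 and 0.54, and *Csf1*, the macrophage growth factor, read 5.47, 5.28 and 3.81 against 0.41, 0.18 and 0.34 (4.54 ± 0.37, adjusted *P* = 2.2e-05). The monocyte chemokine *Ccl2* (2.91, 4.77 and 1.47), *Ccl7* (2.33, 2.10 and 1.33) and the neutrophil chemokine *Cxcl1* (2.57, 1.36 and 1.84) were listed at 0 in the TAS1440 + GSI and DMSO libraries. These chemokine genes entered the test through the TAS1440 libraries only, so the count and median of this list are partly set by the filter. *Cxcl10*, a T cell chemokine, read 2.65, 4.27 and 1.27 against 0.39, 0.24 and 0.44 (2.38 ± 0.58, adjusted *P* = 0.012). *Tgfb1* (2.05) and *Tgfb3* (1.98) were higher, and *Cx3cl1* was higher by 1.24 ± 0.38 (adjusted *P* = 0.035), a call lost under 10 of 17 settings. *Tnf* was listed at 0 and *Il15* was below 0.01 in all 9 libraries.

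Of the NF-κB and AP-1 genes, 7 of 12 tested were higher and 0 lower (median 1.45). *Junb* read 6.15, 6.79 and 5.73 against 2.33, 2.56 and 2.75 (3.68 ± 0.27, adjusted *P* = 1.3e-05), and *Nfkb2*, of the non-canonical arm, read 3.65, 3.93 and 2.98 against 0.51, 0.73 and 0.48 (2.95 ± 0.22). *Fosl2* (2.71), *Egr1* (2.56), *Bcl3* (1.69), *Fos* (1.56) and the inhibitor *Nfkbia* (1.29) were the others, and *Jun* did not pass (0.49, adjusted *P* = 0.52). Among ligands for NK and T cells, the adhesion molecule *Icam1* (1.82, 1.78 and 2.23 against 0.06, 0.08 and 0.31), *Pvr* (1.34) and *Cd47* (1.16) were higher of 6 tested. *Cd274*, the gene of PD-L1, was not tested and stayed at 0.24, 0.44 and 0.08 against 0.06, 0.02 and 0.23.

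Members of the MYC family differed in direction. *Myc* read 5.65, 6.09 and 3.52 against 0.46, 0.29 and 1.15 (4.45 ± 0.57, adjusted *P* = 0.00033). *Mycl*, a family member often amplified in SCLC, read 9.76, 10.46 and 10.06 against 13.37, 13.10 and 12.01 (−2.73 ± 0.35, adjusted *P* = 0.00030), and *Mycn* was lower by 1.79 (−1.79 ± 0.40). *Sox9*, a progenitor factor, was higher (2.48 ± 0.63, adjusted *P* = 0.015), and *Sox2* did not pass (−1.56, adjusted *P* = 0.11). *Pou2f3*, the factor of the tuft-like SCLC type, was below 0.01 in all 6 libraries.

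Cell cycle genes were tested nearly in full, 30 of 32, and 3 were higher and 2 lower with a median of 0.03. The shares over all tested genes were 8.5% higher and 8% lower. The D-type cyclins *Ccnd1* (3.85, 5.17 and 4.25 against 0.01, 0.01 and 0.02, a difference of 4.41 ± 0.28) and *Ccnd2* (2.84, 4.04 and 3.47 against 0.00, 0.00 and 0.01) were higher with *Cdkn2a* (1.82 ± 0.26), and *Cdkn1a*, the gene of p21, was lower (−1.47 ± 0.26, adjusted *P* = 0.0020) with *Ccne2* (−1.12 ± 0.34). Proliferation genes did not pass the test, among them *Mki67* (3.11, 3.68 and 3.59 against 4.88, 4.84 and 2.70, adjusted *P* = 0.36) and *Top2a* (3.69, 4.54 and 4.37 against 4.63, 4.76 and 3.05, adjusted *P* = 0.94). Library 9 was the lowest TAS1440 + GSI library for 20 of the 30 genes. Of 20 cholesterol synthesis genes, 17 were tested and 0 passed the threshold by limma or had an adjusted *P* under 0.05 (median −0.32), while 2 had an unadjusted *P* under 0.05, and library 6 was the highest TAS1440 library for all 17.

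**Figure D5:**
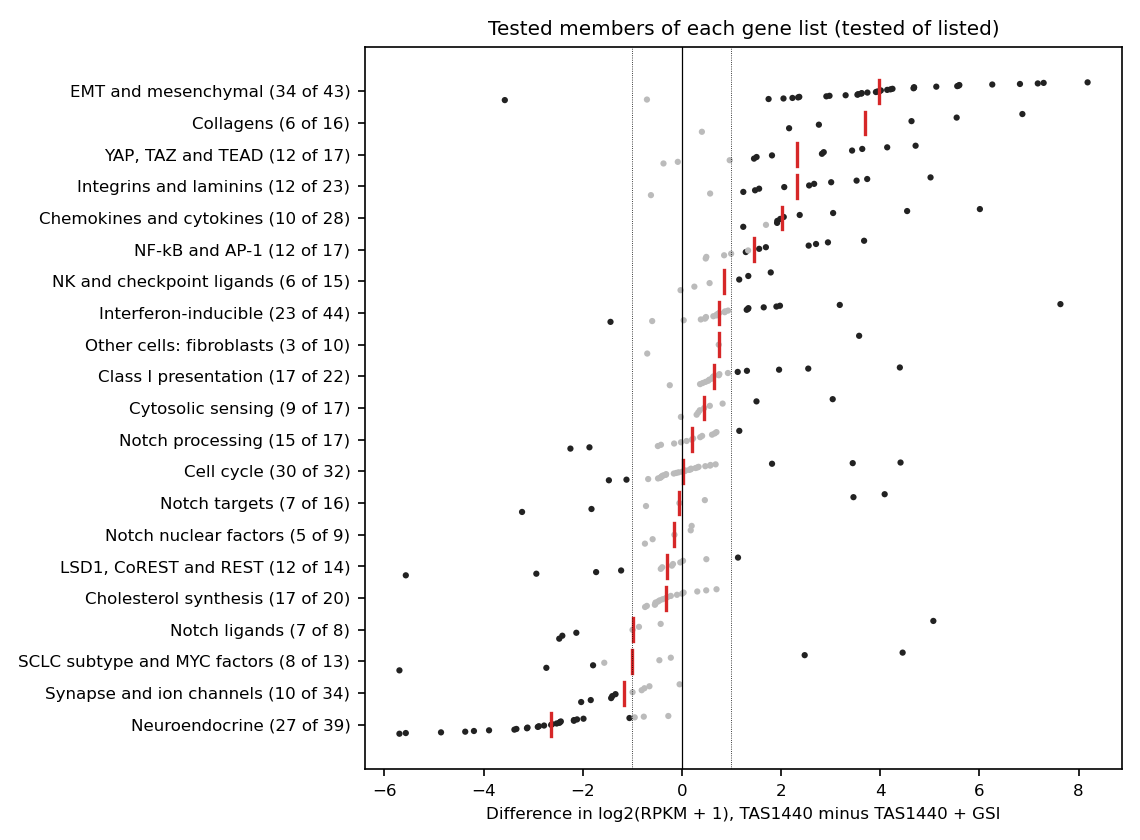
Difference in log2(RPKM + 1) between TAS1440 and TAS1440 + GSI (x axis) for each tested member of 21 gene lists (y axis, tested of listed in brackets), with members past the threshold in black, others in grey and list medians in red. The median is highest for mesenchymal genes (3.97) and lowest for neuroendocrine genes (−2.64), and near 0 for cell cycle genes (0.03).

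Both TAS1440 groups were also set beside DMSO, in comparisons that share their libraries with the one above. TAS1440 alone differed from DMSO for 1552 genes (18.8%), 751 higher (9.09%) and 801 lower (9.7%), and TAS1440 + GSI differed for 100 (1.21%), 38 higher (0.46%) and 62 lower (0.751%). On the span-removed scale 14.7% of genes were higher and 17.8% lower than DMSO with TAS1440 alone (32.5% in all), and 1.41% were higher and 1.23% lower with TAS1440 + GSI (2.64% in all). *Hes1* differed from DMSO by 4.34 with TAS1440 alone and by 0.25 with TAS1440 + GSI, and *Insm1* by −4.87 and 0.70. Of the genes named here, 7 passed the threshold between TAS1440 + GSI and DMSO. *Snai2* (1.64, adjusted *P* = 0.018), *Lgals1* (1.81, adjusted *P* = 0.010) and *Cx3cl1* (1.97, adjusted *P* = 0.038) were above DMSO. *Ifitm3* (−1.80), the coagulation factor receptor *F3* (−1.82), *Celf3* (−1.54) and the surfactant gene *Sftpc* (−2.47) were below it. *Ifitm3* and *F3* thus stood below DMSO with TAS1440 + GSI and above it with TAS1440 alone, by 5.84 and 1.01.

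The same design was run by the study in the human SCLC line COR-L88, with another GSI (BMS-708163 at 2 µM) and in a table normalized separately, so values are given side by side with no test between lines. The COR-L88 fit also held STING1 knockout libraries, which entered its gene filter and spread but not the 2 means compared. In COR-L88, 1367 of 13134 genes were higher with TAS1440 alone (10.4%) and 568 lower (4.32%). *HES1* was higher by 2.36 ± 0.24 and *HES6* lower (−2.04 ± 0.21), with *DLL1* (−1.63), *DLL3* (−1.97), *DLL4* (−2.25) and *LFNG* (−3.29) lower. *NOTCH1* was lower with TAS1440 alone (2.35 against 6.73), a difference of −4.39 ± 0.39, whereas *Notch1* in KP1 had a higher mean with TAS1440 alone, and *NOTCH2* did not pass (−0.11, adjusted *P* = 0.70) where *Notch2* in KP1 was higher. Of class I genes with a human counterpart of the same symbol, 8 of 14 tested were higher and 0 lower (median 1.13). *B2M* (2.93) and *TAPBP* (1.23) were higher in both lines, and *TAP1* (2.67) and *TAP2* (1.67) passed the threshold in COR-L88. *TMEM173* was higher by 1.37 ± 0.14 in COR-L88, against 0.36 ± 0.21 in KP1.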

How the data were processed

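KP1 cells were profiled by RNA-Seq of polyA RNA (stranded mRNA libraries, paired ends, NovaSeq). Per the labels the authors used cutadapt, STAR, RSEM and edgeR with builds hg19 and mm10, and the methods name TMM scaling and no mouse build. Tool versions and the annotation are not given in the sources used here. The deposited values are log2 values of RPKM + 1, in 1 table for KP1 and another, normalized separately, for the human libraries.

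Depth was estimated from the values: the smallest values of 4272 genes listed at 0 in at least 3 libraries scaled with the genomic span, and 77.6% of 10206 values of 1 to 10 reads lay within 0.1 of a whole read, against 20% if even. Relative library sizes were 0.872 to 1.07 times the median. Counts were not recovered for all genes, so no count test was run. Spans and positions were taken from GENCODE M21 (GRCm38) for 18470 of 18501 genes (99.8%).

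The 9 KP1 libraries were fitted together in R 4.3.3 with limma 3.58.1, with a mean for each of the 3 groups, variances moderated with a trend, two-sided tests and Benjamini-Hochberg adjustment over every tested gene. Genes entered if 3 or more libraries had a log2 value of 1 or higher. COR-L88 was fitted likewise over its 15 libraries in 5 groups, among them STING1 knockout cells with DMSO and with TAS1440. The span-removed scale was log2 of RPKM times span in kb plus 0.5, for genes that reached 1 in 3 or more libraries. On simulated data for this comparison, 88% of differences of 1.5 and 95% of differences of 3 were recovered over 8260 genes, and 3.68% of calls were false, and on the span-removed scale 55%, 91% and 3.31% over 12941 genes. The simulation drew independent normal values with the same spread in every group and changed 200 genes. In the data the TAS1440 libraries were less alike than the DMSO libraries and 1363 genes were called. These rates therefore need not hold for the data.

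The 24 gene lists and their members were chosen with earlier results of these data known, and lists are described by counts and medians without a test. Genes were named by these rules (a few that they select are not reported here): all members of the Notch lists, up to 6 members past the threshold per direction of the other lists with members needed to account for a list, genes the study names, and the 15 largest differences per direction with groups that did not overlap and a mean of at least 3 in the higher group, without clone-named models. The closest pair of replicates, DMSO libraries 1 and 2, still differed by more than sampling noise and was counted as 2. A planned search of promoters for an RBPJ motif was not run. The alternatives tried were other filters, a pseudocount of 0.1, other scalings, other variance models, leaving out each library and the span-removed scale. Figures were drawn with matplotlib 3.10.9 (Python 3.11.15).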

Additional observations from a re-analysis of the deposited data

Results flagged for a closer look

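*Notch1* in KP1 and *NOTCH1* in COR-L88 differed in opposite directions between TAS1440 alone and TAS1440 + GSI, with no overlap of the groups in either line. Opposite directions and groups that do not overlap were the rule that chose the genes of this paragraph. Of all tested KP1 genes, 41.1% had groups that did not overlap. *Notch1* and *Rbpj* were not among those tested on the log2(RPKM + 1) scale, and the share in COR-L88 was not counted. The KP1 mean was higher with TAS1440 alone by 0.849 on the log2(RPKM + 1) scale, and the COR-L88 mean was lower by 4.39 (−4.39). *Rbpj* in KP1 was higher by 0.551 and *RBPJ* in COR-L88 lower (−0.45), again without overlap. The difference between the lines was not tested for either gene, since the tables were normalized separately and the inhibitors differed.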

How the results depend on the processing

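On the span-removed scale 1718 genes were higher and 2107 lower, and 1868 and 2104 without library 5. With a pseudocount of 0.1 the lower genes numbered 995. TAS1440 alone differed from DMSO for 4205 and TAS1440 + GSI from DMSO for 341 genes on that scale. With 1 library left out, the higher genes numbered 625 to 751, the lower 603 to 737, those of TAS1440 against DMSO 1449 to 1635, those of TAS1440 + GSI against DMSO 49 to 122 (49 without DMSO library 1, 51 without DMSO library 2), and those of COR-L88 1831 to 2047. No scaling moved the share of higher genes by more than 10 percentage points. Uncalled genes that changed sign were *Psen2* (0.23 with array weights, −0.35 to 0.053 with a library left out), *Mib1* (−0.040 to 0.29 with a library left out) and *Dtx3l* (−0.25 to 0.12 with a library left out). The cause was not tested. Besides those given above, calls of *Ccne2*, *Bst2*, *Fos*, *Sox9*, *Egr1*, *Itga3* and *Scg5* were lost under some settings. No paired analysis was possible because the library numbers 1 to 9 are not shared between the KP1 groups.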

Other observations

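Genes of the Y chromosome, which were on no list, differed between libraries within groups. *Ddx3y* read 2.21, 2.49 and 0.19 in TAS1440 libraries 4, 5 and 6, 0.04, 0.10 and 0.57 in TAS1440 + GSI libraries 7, 8 and 9, and 0.61, 0.55 and 0.56 in DMSO. *Eif2s3y* (1.66, 2.16 and 0.08 with TAS1440, 0.01, 0.07 and 0.37 with TAS1440 + GSI) and *Kdm5d* (1.17, 1.29 and 0.04 against 0.05, 0.08 and 0.35) had library 6 low and library 9 high in the same way. These genes were chosen after their values were seen.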
